A study of Homo sapiens with 20 samples.

Results

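The genes described here encode the enzymes that build, sulfate and trim heparan sulfate and chondroitin sulfate. Of the 44 symbols listed, 43 were found among the 24196 genes of the deposited FPKM table (fragments scaled by gene length and by library size), and HS3ST2 was not used here. The samples were 8 bulk polyA RNA-seq libraries of orthotopic OVCAR8-NSG tumors, 4 labelled PBS and 4 labelled gluconate. For the RNA-seq with gluconate the study's text speaks of OVCAR8 cells and not of tumors, and the labels are followed here. OVCAR8 is a human ovarian carcinoma line, and NSG mice lack T, B and NK cells but keep myeloid cells and a mouse stroma. Per the study's methods for the efficacy experiment, the mice were 6 weeks old when the cells were placed at the ovary, and received PBS or 1 mg/kg sodium gluconate intraperitoneally each week for 35 days; the labels give no dose, and no source used here ties these libraries to that experiment. The labels do not say whether the replicates were separate mice, so p-values measure only the spread between these samples. The remaining 12 libraries of the series, from cultured knockout and sgNC cells, were not analysed here.

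Heparan sulfate and chondroitin sulfate are long sugar chains attached to serines of proteoglycan core proteins in the Golgi. Both start from the same linker of xylose, galactose and glucuronic acid, after which the EXT polymerases make heparan sulfate and the CHSY and CHPF proteins make chondroitin sulfate. Sulfotransferases then place sulfate at set positions of the sugars, and the resulting pattern decides which growth factors, morphogens and chemokines a chain can hold at the cell surface. All of them draw sulfate from a common donor, PAPS, which is made in the cytosol and carried into the Golgi.

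The tumors carried transcripts for every step of both pathways, and the share of members that differed between gluconate and PBS tumors was near that of all genes. Of the 43 members, 35 had a mean of at least 0.5 FPKM over the 8 libraries and were tested with limma on log2(FPKM + 0.1) across all 12486 such genes. After Benjamini-Hochberg adjustment over all genes, limma called 0 genes at an adjusted p under 0.05, and the lowest adjusted p was 0.740 for any gene and for any member. At an unadjusted p under 0.05 there were 577 genes (4.62%), a count that ran from 267 without gluconate replicate 4 and 288 without gluconate replicate 3 to 874 without PBS replicate 2 and 1216 without PBS replicate 1, and limma's voom on recovered fragments also gave 0 genes after adjustment and 592 before it. At an unadjusted p under 0.05, 2 of the 35 members differed, UXS1 and CHST3, both higher in gluconate tumors, where 3.13% of all tested genes were higher and 1.49% were lower. These 2 made up 5.71% of the members. With a 2-fold change required as well, 0 members were called in either direction, against 0.192% of genes higher and 0.104% lower. Log2 fold changes of the members ran from -0.67 for EXT1 to 0.66 for CHST3.

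PBS replicate 4 stood apart from the other tumors, so the fold change of each member that passed an unadjusted p of 0.05 in either setting is given with and without it. Its values rested on 3953206 fragments, recovered from the steps between FPKM values, against 39325749 to 46551535 in the other 7 libraries. Its correlation with each of them, on the log2 scale across genes, was 0.938 to 0.951, while the others correlated at 0.980 or more. Without it, limma called 0 genes at an adjusted p under 0.05 and 778 (6.21%) at an unadjusted p under 0.05. Among these, 2 members were higher (UXS1 and CHST3) and 2 were lower (EXT1 and HS2ST1) at an unadjusted p under 0.05, where 2.85% of 12530 genes were higher and 3.36% lower. With a 2-fold change required as well, 0 members were called, against 0.0239% of genes higher and 0.0638% lower. The median log2 fold change of the 35 members was 0.11 with the library, beside 0.07 for all genes tested. It was -0.0026 without the library, beside -0.0029 for all genes. With the library 24 members had a log2 fold change above 0, and without it 17 did. The sign turned for 9 members (XYLT2, B4GALT7, NDST2, GLCE, CSGALNACT2, CHSY1, CHST7, CHST12 and PAPSS1), none of which had an unadjusted p under 0.05 in either setting.

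**Figure D1:**
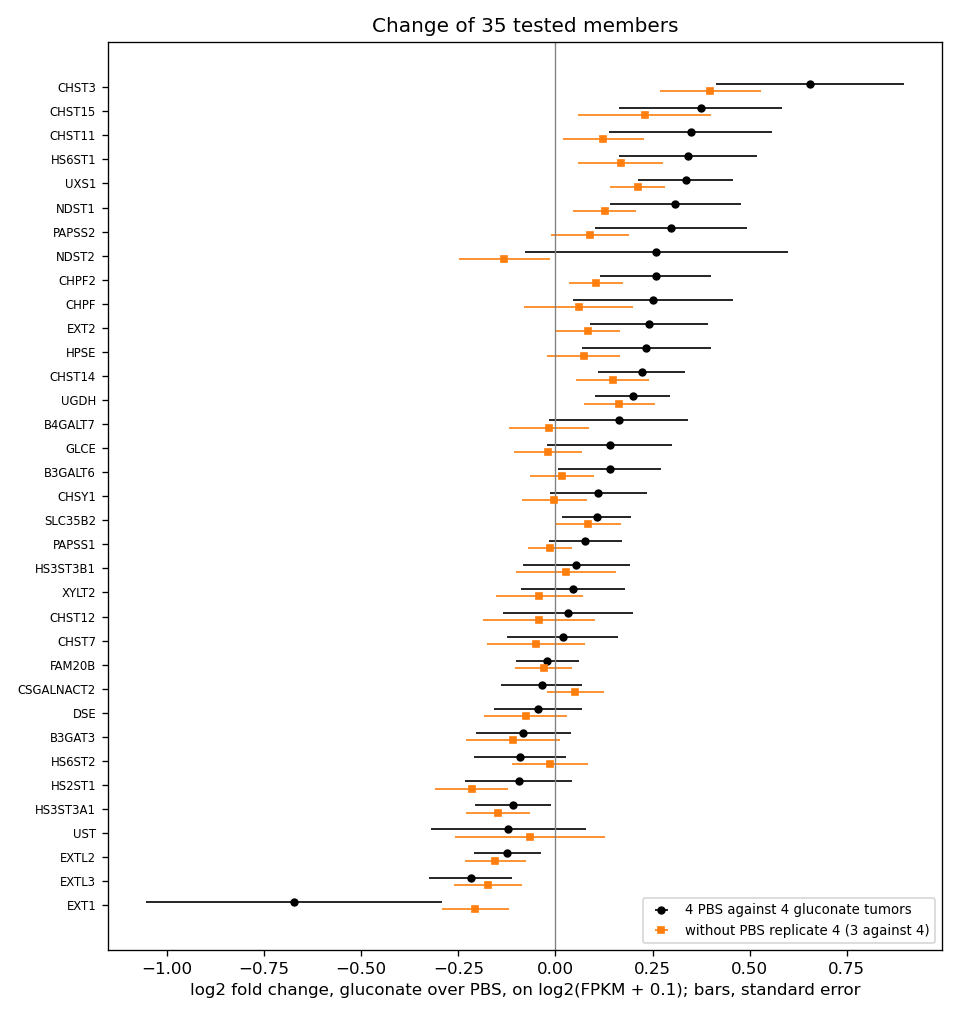
Log2 fold change of the 35 tested members, gluconate over PBS, on the log2(FPKM + 0.1) scale (x axis); circles use all 8 tumors, squares leave out PBS replicate 4, and bars are standard errors. CHST3 lay highest at 0.66 and EXT1 lowest at -0.67, and without PBS replicate 4 all members lay between -0.22 and 0.40.

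Levels spanned a wide range. FPKM is scaled by gene length, so levels of different genes can be set side by side, and means over the 7 libraries other than PBS replicate 4 are given here. PAPSS1, which makes the sulfate donor, had the highest mean at 47.0 FPKM, followed by the heparan sulfate polymerase EXT1 at 34.4 FPKM. UXS1, SLC35B2, CHPF2, UGDH and PAPSS2 followed between 19.6 and 22.3 FPKM, and the ranges of these neighbours overlapped from library to library. In all, 15 members averaged at least 10 FPKM, 20 averaged between 1 and 10 FPKM, and 8 were under the minimum for testing. In the order of means, 36 of 42 neighbouring pairs had ranges that overlapped, so most ranks were not separated. The median over tested members was 9.19 FPKM, beside 6.76 FPKM over all tested genes. The median coefficient of variation of the tested members was 8.20% in PBS replicates 1 to 3 and 7.89% in the gluconate tumors, beside 9.68% and 8.29% for all tested genes. Over all 4 PBS tumors it was 15.8%, beside 17.4% for all tested genes.

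For xylosyltransferase, the first enzyme of the linker, nearly all transcripts were those of XYLT2. XYLT2 was 6.00, 6.61, 7.42 and 5.23 FPKM in the PBS tumors and 5.51, 6.66, 6.39 and 7.42 FPKM in the gluconate tumors, each list in the order of replicates 1 to 4, as in all lists that follow. XYLT1 was listed at 0 in 7 libraries and at 0.00862 FPKM in PBS replicate 1. That value is 2 fragments at the shortest gene length that gives whole fragments, and a single value above 0 does not fix the length. A count of 0 allows up to 3 fragments, which at that length is 0.0127 to 0.149 FPKM for XYLT1, depending on the library. A longer length would lower these limits, and such limits cover counting error only. Every value of XYLT2 thus lay far above what could have been missed for XYLT1. The promoters of the pair are shown because this was the 1 pair in which a paralog was listed at 0 in 7 tumors. They are RefSeq windows on GRCh38.p14 from 250 bases before to 50 bases after the start, XYLT2 at chr17:50345876-50346175, plus strand and XYLT1 at chr16:17470911-17471210, minus strand, with each GC box (GGGCGG or its complement CCGCCC) in capitals:
XYLT2: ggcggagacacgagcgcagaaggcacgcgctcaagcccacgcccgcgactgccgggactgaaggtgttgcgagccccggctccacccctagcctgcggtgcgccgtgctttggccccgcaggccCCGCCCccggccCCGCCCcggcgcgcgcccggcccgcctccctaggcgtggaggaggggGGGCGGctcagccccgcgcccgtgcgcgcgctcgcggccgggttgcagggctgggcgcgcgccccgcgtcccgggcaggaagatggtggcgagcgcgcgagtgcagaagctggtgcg
XYLT1: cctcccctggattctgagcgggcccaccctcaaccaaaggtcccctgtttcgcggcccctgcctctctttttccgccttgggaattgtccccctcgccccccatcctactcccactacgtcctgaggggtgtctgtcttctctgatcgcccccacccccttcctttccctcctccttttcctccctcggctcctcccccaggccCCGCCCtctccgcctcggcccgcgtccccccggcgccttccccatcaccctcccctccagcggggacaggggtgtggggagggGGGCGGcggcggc
The XYLT2 window held 3 GC boxes and the XYLT1 window 2, so the letters of this motif were in both. A match is a description of the sequence and says nothing of binding. A window was found in the set of RefSeq promoters used here for 39 of the 44 listed genes. Of the 39, 33 (84.6%) held a GC box on either strand, beside 44.6% of all 27305 promoters of that set, which have the same length. TATAAA was in 2 of the 39 windows (5.13%), those of EXT2 and HPSE, beside 12.0% of all promoters. The median GC content was 70.0% for members and 58.3% for all promoters. The promoters set beside the members were not limited to tested genes, so nothing about the members is read from these contrasts.

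The next linker enzymes were at middle levels. B4GALT7 and B3GALT6, the galactosyltransferases, averaged 7.54 and 9.48 FPKM over the 7 libraries, B3GAT3, which adds the glucuronic acid, 8.74 FPKM, and FAM20B, the xylose kinase, 9.60 FPKM. Log2 fold changes of these 4 genes in gluconate tumors lay between -0.08 and 0.16, and the lowest unadjusted p of the 4 was 0.316, for B3GALT6. UGDH makes UDP-glucuronic acid, the sugar donor of both chains, and was 21.2, 19.3, 16.0 and 17.0 FPKM in the PBS tumors and 21.1, 21.0, 21.7 and 20.2 FPKM in the gluconate tumors. The groups overlapped, and the log2 fold change of UGDH was 0.20 ± 0.10 (SE; limma, unadjusted p = 0.0690).

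UXS1 turns UDP-glucuronic acid into UDP-xylose, the donor of the first sugar of the linker, and had the highest mean of this step. UGDH was higher than UXS1 in PBS replicate 1 and PBS replicate 4. It was 20.5, 22.2, 18.8 and 14.5 FPKM in the PBS tumors and 23.1, 23.3, 23.9 and 24.7 FPKM in the gluconate tumors. All 4 gluconate values lay above all 4 PBS values, with or without PBS replicate 4. UXS1 averaged 19.0 ± 3.28 FPKM (SD, n = 4) with PBS and, with gluconate, 23.7 ± 0.704 FPKM (SD, n = 4). The log2 fold change of UXS1 was 0.34 ± 0.12 (SE; limma, unadjusted p = 0.0226, adjusted p = 0.740), and without PBS replicate 4 it was 0.21 ± 0.07 (unadjusted p = 0.0138, adjusted p = 0.799). Leaving out gluconate replicate 4 gave UXS1 0.32 with an unadjusted p of 0.0544. UXS1 was the single member that was higher without overlap, while EXTL3 was the single one lower without overlap. Among all tested genes 2.08% were higher and 1.41% lower without overlap, and without PBS replicate 4 2.43% and 3.66%, beside 1 of 35 members (2.86%) in each direction. With median-ratio scaling 1 member was higher and 2 lower without overlap, beside 1.82% and 2.27% of genes, and with quantile normalization 2 were higher and 1 lower, beside 2.16% and 1.97%.

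The heparan sulfate polymerase is a complex of EXT1 and EXT2. EXT1 was 32.8, 38.4, 40.7 and 136 FPKM in the PBS tumors and 30.9, 30.8, 32.2 and 35.2 FPKM in the gluconate tumors. PBS replicate 4 was 4.14 times the median of the other 7 libraries, and those 7 ranged only from 30.8 to 40.7 FPKM. The value rested on 4427 fragments, with a 95% Poisson interval of 132 to 139.9 FPKM for counting error alone. Among all tested genes, 1.06% were at least as far above the highest of the other 7 libraries in that tumor. With PBS replicate 4, the log2 fold change of EXT1 was -0.67 ± 0.38 (SE; limma, unadjusted p = 0.111). Without it, the PBS mean was 37.3 ± 4.06 FPKM (SD, n = 3), the gluconate mean 32.3 ± 2.09 FPKM (SD, n = 4), and the log2 fold change -0.21 ± 0.09 (unadjusted p = 0.0387, adjusted p = 0.799), with overlapping groups.

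No excess of that size was seen in its partner or its tested neighbours. EXT2 was 12.4, 13.5, 11.7 and 8.08 FPKM in the PBS tumors and 12.3, 14.3, 14.1 and 12.6 FPKM in the gluconate tumors, so that PBS replicate 4 was its lowest value, from 332 fragments. The ratio of EXT1 to EXT2 was 2.64 to 3.48 in PBS replicates 1 to 3, 16.8 in PBS replicate 4 and 2.15 to 2.79 in the gluconate tumors. Of 11 tested genes within 2 Mb of EXT1, 2 were above, 3 below and 6 within the range of the other 7 libraries in PBS replicate 4, and the highest ratio to their median was 1.15, for MED30. Scaling libraries by median ratios left EXT1 at 159 FPKM in PBS replicate 4 against 29.2 to 40.1, and quantile normalization left it at 135 against 30.3 to 40.7.

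The EXTL genes start chains or add single sugars. EXTL3, which adds the first glucosamine of heparan sulfate, was 2.70, 2.94, 2.84 and 3.21 FPKM in the PBS tumors and 2.48, 2.52, 2.54 and 2.44 FPKM in the gluconate tumors. All gluconate values lay below all PBS values, and PBS replicate 4 was the highest, although its 95% interval of 2.63 to 3.88 FPKM, from 106 fragments, reached the other tumors. EXTL3 averaged 2.92 ± 0.216 FPKM (SD, n = 4) with PBS and, with gluconate, 2.49 ± 0.0448 FPKM (SD, n = 4), and the log2 fold change was -0.22 ± 0.11 (SE; limma, unadjusted p = 0.0704) and -0.17 ± 0.09 without PBS replicate 4 (unadjusted p = 0.0786). EXTL3 was under the 2-fold line in every setting, and the side of 0.05 on which its unadjusted p lay depended on the scaling and the fit: with median-ratio scaling the unadjusted p was 0.0457, with quantile normalization 0.0447, without a trend in the variance 0.0268, and with voom on the recovered fragments 0.0488. An antisense gene, EXTL3-AS1, overlaps EXTL3 and is in the table, and since the use of strand in counting is not given in the sources used here, reads of the pair cannot be told apart. EXTL2 averaged 14.4 FPKM over 7 libraries, with a log2 fold change of -0.12 ± 0.09 (unadjusted p = 0.185). EXTL1 was low in every tumor, at 0.0102 to 0.0518 FPKM in 7 libraries and 0 in PBS replicate 4, where a count of 0 allows up to 0.166 FPKM.

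**Figure D2:**
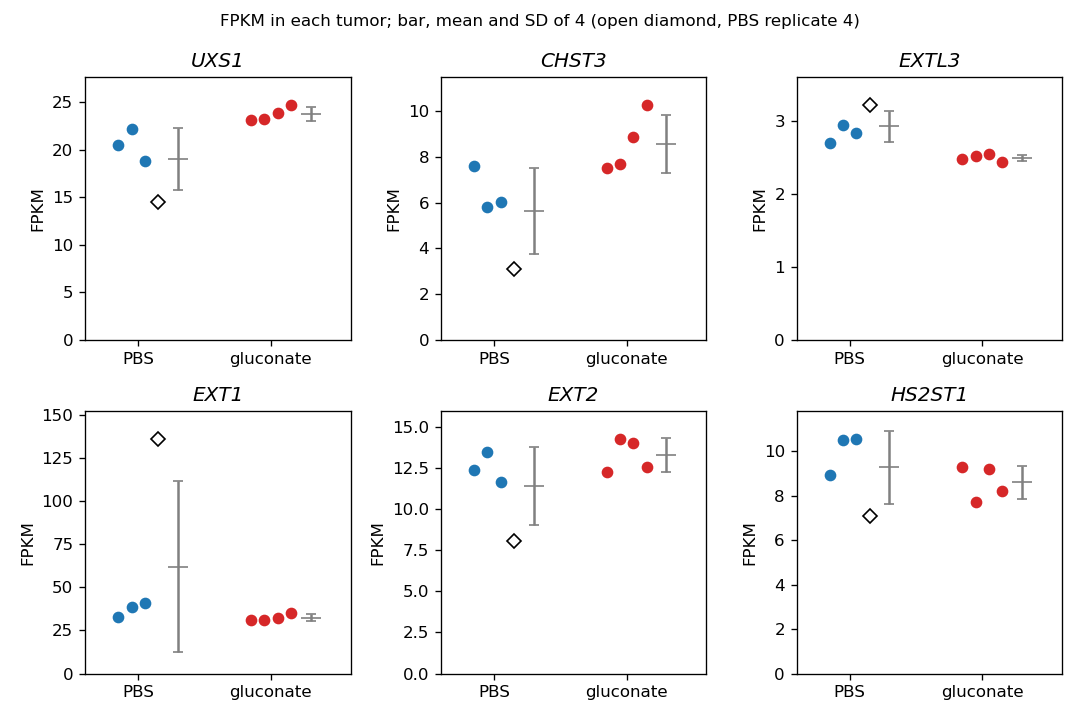
FPKM of 6 members in each tumor (y axis from 0), PBS at the left and gluconate at the right of each panel, with replicates from left to right; points are tumors, the open diamond PBS replicate 4, and the bars mean and SD of 4. UXS1 and EXTL3 do not overlap between the groups, while CHST3, EXT2 and HS2ST1 do, and EXT1 is 136 FPKM in PBS replicate 4 against 30.8 to 40.7 FPKM elsewhere.

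Modification of heparan sulfate begins with the NDST enzymes, which swap the acetyl group of glucosamine for sulfate and so set where later enzymes act. NDST1 had the highest mean of this step and was 13.6, 15.3, 13.5 and 8.47 FPKM in the PBS tumors and 14.0, 15.3, 15.6 and 16.7 FPKM in the gluconate tumors. In PBS replicate 4 HS6ST2, of the same step, was higher at 8.90 FPKM. NDST2 was lower, at 2.96, 2.58, 3.53 and 0.947 FPKM in the PBS tumors and 2.79, 2.70, 2.56 and 2.88 FPKM in the gluconate tumors. PBS replicate 4 was the lowest value for both, and for NDST2 it rested on 18 fragments, with a 95% interval of 0.561 to 1.50 FPKM that ended below all other tumors. NDST1 had a log2 fold change of 0.31 ± 0.17 (unadjusted p = 0.0984), and of 0.13 ± 0.08 without PBS replicate 4. That of NDST2 was 0.26 ± 0.34 (unadjusted p = 0.460), and without PBS replicate 4 it was -0.13 ± 0.12, on the other side of 0. NDST3 was between 0.0410 and 0.125 FPKM in all 8 tumors and was not tested.

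The epimerase GLCE, which turns glucuronic into iduronic acid, averaged 3.65 FPKM over 7 libraries, with a log2 fold change of 0.14 ± 0.16, and -0.02 ± 0.09 without PBS replicate 4. HS2ST1, which sulfates that iduronic acid, was 8.94, 10.5, 10.5 and 7.10 FPKM in the PBS tumors and 9.27, 7.71, 9.18 and 8.21 FPKM in the gluconate tumors. The groups overlapped in both settings, and PBS replicate 4 was again the lowest. The log2 fold change of HS2ST1 was -0.10 ± 0.14 (SE; limma, unadjusted p = 0.507), and without PBS replicate 4 it was -0.22 ± 0.09 (unadjusted p = 0.0467, adjusted p = 0.799), with a PBS mean of 9.99 ± 0.913 FPKM (SD, n = 3) and a gluconate mean of 8.59 ± 0.759 FPKM (SD, n = 4).

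Of the sulfotransferases that make the rarest marks, HS3ST1, whose product binds antithrombin, was listed at 0 in 7 tumors and at 0.0208 FPKM in PBS replicate 4. That value is 1 fragment at the shortest gene length that gives whole fragments. HS3ST3A1 and HS3ST3B1, which make chains that herpesvirus glycoprotein binds, were the members of that family above the minimum. HS3ST3A1 was 5.10, 4.69, 4.85 and 4.36 FPKM in the PBS tumors and 4.10, 4.46, 4.70 and 4.32 FPKM in the gluconate tumors. HS3ST3B1 was 2.82, 2.65, 2.24 and 2.37 FPKM in the PBS tumors and 2.32, 2.90, 2.33 and 2.96 FPKM in the gluconate tumors. HS3ST3A1 was thus the higher of the pair in every tumor, but their reads are not fully separable. In GENCODE 29 on GRCh38, the transcripts shared an identical run of 537 bases in the coding part of exon 2 of 2 in each gene, at chr17:13496203-13496739 on the minus strand and chr17:14345107-14345643 on the plus strand. A window of 100 bases was shared for 18.0% of positions in HS3ST3A1 and 8.31% in HS3ST3B1, and 0% in the 10 other pairs compared. These shares are of the longest coding transcript of each gene, 2527 and 5367 bases. The lengths behind the FPKM values may be longer, so the shares are not those of counted reads. How reads that fit both genes were counted is not given in the sources used here. The first 150 bases of the run, the length of 1 read, are shown as an example of sequence that fits both genes, with nothing in capitals since all of it is shared:
HS3ST3A1 and HS3ST3B1: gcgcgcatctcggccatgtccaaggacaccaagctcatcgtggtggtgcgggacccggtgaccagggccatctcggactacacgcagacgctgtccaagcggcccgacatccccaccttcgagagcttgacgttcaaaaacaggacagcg
Those bases lie at chr17:13496590-13496739 in HS3ST3A1 and at chr17:14345107-14345256 in HS3ST3B1. The log2 fold changes were -0.11 ± 0.10 for HS3ST3A1 (unadjusted p = 0.291) and 0.05 ± 0.14 for HS3ST3B1 (unadjusted p = 0.703).

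The glucosamine 6-O-sulfotransferases were both expressed. HS6ST1 was 9.75, 10.8, 8.58 and 5.93 FPKM in the PBS tumors and 9.36, 12.4, 10.9 and 11.0 FPKM in the gluconate tumors. HS6ST2 was 7.58, 7.79, 6.23 and 8.90 FPKM in the PBS tumors and 6.64, 6.96, 7.03 and 7.79 FPKM in the gluconate tumors. HS6ST1 was the higher in 7 tumors, and HS6ST2 was the higher in PBS replicate 4, where it was 8.90 FPKM with a 95% interval of 7.84 to 10.1 FPKM. The ratio of HS6ST1 to HS6ST2 was 1.29 to 1.38 in PBS replicates 1 to 3, 0.667 in PBS replicate 4 and 1.41 to 1.78 in the gluconate tumors. The highest PBS ratio lay just under the lowest gluconate ratio, 1.38 against 1.41. Of the 9 pairs with both genes above 0 in all 8 libraries, 1 ratio was higher without overlap, this one, and 0 were lower. No share for other gene pairs stands beside that count, so nothing is read from it. Log2 fold changes were 0.34 ± 0.18 for HS6ST1 (unadjusted p = 0.0843) and -0.09 ± 0.12 for HS6ST2 (unadjusted p = 0.462). Without PBS replicate 4 they were 0.17 ± 0.11 and -0.01 ± 0.10.

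Outside the cell, the sulfatases SULF1 and SULF2 remove sulfate from finished heparan chains and heparanase cuts them. SULF1 was 0.167, 0.211, 0.0897 and 0.197 FPKM in the PBS tumors and 0.359, 0.175, 0.206 and 0.255 FPKM in the gluconate tumors. SULF2 was 0.0224, 0.0264, 0.0102 and 0 FPKM in the PBS tumors and 0.0304, 0.0239, 0.0104 and 0.0191 FPKM in the gluconate tumors, and its count of 0 in PBS replicate 4 allows up to 0.155 FPKM. Both sulfatases were thus under the minimum in all 8 tumors, and neither was tested. HPSE, heparanase, was 3.29, 3.18, 3.06 and 2.00 FPKM in the PBS tumors and 3.03, 3.68, 3.32 and 3.39 FPKM in the gluconate tumors. The groups overlapped, and the log2 fold change of HPSE was 0.23 ± 0.17 (unadjusted p = 0.191), and 0.07 ± 0.09 without PBS replicate 4.

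On the chondroitin side, CSGALNACT2 encodes an enzyme of the step that commits a linker to chondroitin sulfate. It was 13.2, 11.4, 13.3 and 16.0 FPKM in the PBS tumors and 13.0, 12.7, 13.4 and 13.1 FPKM in the gluconate tumors. Its paralog CSGALNACT1 was 0.0219, 0.0391, 0.0114 and 0.0460 FPKM in the PBS tumors and 0.0180, 0.0255, 0.0116 and 0.0106 FPKM in the gluconate tumors, the value of PBS replicate 4 being 2 fragments. The polymerases work as pairs of a CHSY and a CHPF protein. CHSY1 was 10.6, 11.7, 13.0 and 8.55 FPKM in the PBS tumors and 11.3, 11.3, 11.9 and 12.4 FPKM in the gluconate tumors, far above its paralog. CHSY3 was 0.240, 0.206, 0.210 and 0.0898 FPKM in the PBS tumors and 0.191, 0.294, 0.321 and 0.188 FPKM in the gluconate tumors. CHPF was 12.8, 12.3, 10.0 and 6.82 FPKM in the PBS tumors and 9.94, 11.6, 12.3 and 15.3 FPKM in the gluconate tumors. CHPF2 had the highest mean of the step and was 20.1, 20.3, 18.6 and 12.8 FPKM in the PBS tumors and 19.5, 21.5, 21.9 and 21.8 FPKM in the gluconate tumors. In PBS replicate 4 CSGALNACT2 was higher than CHPF2. Log2 fold changes of the 4 tested genes lay between -0.04 for CSGALNACT2 and 0.26 for CHPF2, and the lowest unadjusted p was 0.103, for CHPF2. Without PBS replicate 4 they lay between -0.0026 for CHSY1 and 0.10 for CHPF2. TMEM198 overlaps CHPF and SMARCD3 overlaps CHPF2, so that reads in the overlaps may have been counted for either gene.

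CHST3, a chondroitin 6-O-sulfotransferase, had the highest log2 fold change of the tested members. It was 7.58, 5.80, 6.04 and 3.11 FPKM in the PBS tumors and 7.51, 7.69, 8.85 and 10.2 FPKM in the gluconate tumors. The lowest gluconate value, 7.51 FPKM, lay just under the highest PBS value, 7.58 FPKM, so the groups overlapped, and PBS replicate 4 was the lowest of all with 120 fragments. CHST3 averaged 5.63 ± 1.86 FPKM (SD, n = 4) with PBS and, with gluconate, 8.57 ± 1.26 FPKM (SD, n = 4). The log2 fold change of CHST3 was 0.66 ± 0.24 (SE; limma, unadjusted p = 0.0234, adjusted p = 0.740). Without PBS replicate 4 the PBS mean was 6.47 ± 0.967 FPKM (SD, n = 3) and the log2 fold change 0.40 ± 0.13 (unadjusted p = 0.0123, adjusted p = 0.799). Leaving out gluconate replicate 3 gave 0.64 with an unadjusted p of 0.0501, and leaving out gluconate replicate 4 gave 0.57 with 0.0663. CHST7, the other chondroitin 6-O-sulfotransferase, averaged 2.79 FPKM over 7 libraries, with a log2 fold change of 0.02 ± 0.14 (unadjusted p = 0.900).

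The promoters of CHST3 and UXS1 are shown because these were the members with an unadjusted p under 0.05 in both settings. They are again RefSeq windows on GRCh38.p14, each at the first of 3 listed starts, UXS1 at chr2:106194252-106194551, minus strand and CHST3 at chr10:71964145-71964444, plus strand, with GC boxes in capitals:
UXS1: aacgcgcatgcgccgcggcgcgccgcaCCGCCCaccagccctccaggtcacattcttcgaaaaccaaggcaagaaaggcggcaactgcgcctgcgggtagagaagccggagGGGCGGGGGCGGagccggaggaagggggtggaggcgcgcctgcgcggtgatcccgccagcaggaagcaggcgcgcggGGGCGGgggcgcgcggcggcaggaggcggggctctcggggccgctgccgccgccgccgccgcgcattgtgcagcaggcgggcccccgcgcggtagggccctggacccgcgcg
CHST3: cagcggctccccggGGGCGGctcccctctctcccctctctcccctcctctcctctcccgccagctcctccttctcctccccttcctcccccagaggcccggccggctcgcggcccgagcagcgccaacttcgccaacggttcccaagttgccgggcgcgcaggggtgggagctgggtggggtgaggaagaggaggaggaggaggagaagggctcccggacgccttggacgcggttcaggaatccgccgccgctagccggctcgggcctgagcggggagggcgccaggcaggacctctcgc
The UXS1 window held 4 GC boxes, a pair of them side by side, and the CHST3 window held 1. UXS1 and CHST3 had a GC content of 77.7% and 73.3% there.

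CHST11 and CHST12 add sulfate at the 4-O position of chondroitin. CHST11 was 8.85, 7.64, 8.23 and 4.36 FPKM in the PBS tumors and 8.31, 7.91, 9.43 and 10.4 FPKM in the gluconate tumors. CHST12 was 1.02, 1.23, 1.17 and 0.901 FPKM in the PBS tumors and 0.982, 1.00, 1.19 and 1.23 FPKM in the gluconate tumors, so CHST11 led in every tumor. CHST14, which does the same on dermatan sulfate, was the most abundant of the step, at 13.3, 15.6, 14.5 and 11.7 FPKM in the PBS tumors and 14.2, 16.5, 15.4 and 18.2 FPKM in the gluconate tumors. In limma, none of these had an unadjusted p under 0.05: log2 fold changes were 0.35 ± 0.21 for CHST11 (unadjusted p = 0.129), 0.03 ± 0.17 for CHST12 (unadjusted p = 0.850) and 0.22 ± 0.11 for CHST14 (unadjusted p = 0.0802). Without PBS replicate 4 they were 0.12 ± 0.10, -0.04 ± 0.14 and 0.15 ± 0.09. CHST15, which adds a further sulfate to already sulfated chondroitin, averaged 1.59 FPKM over 7 libraries, with a log2 fold change of 0.37 ± 0.21 (limma, unadjusted p = 0.108), and 0.23 ± 0.17 without PBS replicate 4. DSE, the epimerase that makes dermatan from chondroitin sulfate, averaged 5.37 FPKM and UST, the uronyl sulfotransferase, 1.31 FPKM, with log2 fold changes of -0.05 ± 0.11 and -0.12 ± 0.20. Genes that overlap DSE (TSPYL1) and UST (UST-AS1 and UST-AS2) are in the table as well.

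Both PAPS synthase genes, which make the sulfate donor, were expressed in every tumor. PAPSS1 was 46.2, 47.8, 47.8 and 36.7 FPKM in the PBS tumors and 45.6, 47.8, 48.3 and 45.5 FPKM in the gluconate tumors. PAPSS2 was 18.9, 16.5, 21.5 and 10.5 FPKM in the PBS tumors and 18.4, 19.0, 20.7 and 22.4 FPKM in the gluconate tumors. PAPSS1 was the higher by 2.03 to 2.89 times in 7 libraries and by 3.49 times in PBS replicate 4. The PAPS carrier of the Golgi, SLC35B2, averaged 21.6 FPKM over 7 libraries. Log2 fold changes were 0.08 ± 0.09 for PAPSS1, 0.30 ± 0.20 for PAPSS2 and 0.11 ± 0.09 for SLC35B2, with unadjusted p of 0.433, 0.160 and 0.261. Without PBS replicate 4 they were -0.01 ± 0.06, 0.09 ± 0.10 and 0.08 ± 0.09.

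Expression was also summed over the genes of a step. The heparan sulfate polymerases summed to 62.5 to 71.1 FPKM in PBS replicates 1 to 3, 161 FPKM in replicate 4 and, with gluconate, 59.3 to 64.9 FPKM, with EXT1 the largest part. The chondroitin polymerases summed to 55.1 to 56.9, 44.3 and 53.9 to 62.9 FPKM in the same order. The chondroitin and dermatan modification genes summed to 40.8 to 42.4, 30.0 and 41.1 to 51.4 FPKM, and those of heparan modification to 53.0 to 58.0, 40.5 and 51.9 to 57.7 FPKM. In each of these steps the gluconate range crossed that of PBS replicates 1 to 3.

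Of 11 paralog pairs, 9 had both genes above 0 in all 8 libraries, and in all of these except HS6ST1 and HS6ST2 the same gene was the higher in every tumor. The ratio in PBS replicate 4 was above the other 7 libraries in 4 of these pairs, below in 2 and within in 3. A ratio within a library is not moved by the scaling of that library. NDST1 over NDST2 was 3.81 to 5.93 in PBS replicates 1 to 3, 8.95 in PBS replicate 4 and 5.03 to 6.10 in the gluconate tumors. CHPF over CHPF2, under 1 in every tumor, was 0.538 to 0.637 in PBS replicates 1 to 3, 0.533 in PBS replicate 4 and 0.511 to 0.701 in the gluconate tumors. CHST11 over CHST12 was 6.24 to 8.69 in PBS replicates 1 to 3, 4.84 in PBS replicate 4 and 7.89 to 8.46 in the gluconate tumors.

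In PBS replicate 4 itself, 22 of the 35 tested members were below the range of the other 7 libraries, 4 were above (EXT1, EXTL3, HS6ST2 and CSGALNACT2) and 9 were within. Of all tested genes 71.7% lay outside that range, 58.0% below and 13.7% above, so the members' share below was near the background. The median of log2(FPKM + 0.1) in that library minus the median of the others was -0.38 for members and -0.28 for all tested genes. When the 95% Poisson interval of each member was set against the other 7 libraries, 16 (45.7%) lay below and 3 (8.57%) above (EXT1, HS6ST2 and CSGALNACT2). By the same rule 27.5% of all genes with recovered fragments lay below and 7.50% above. That interval narrows with the number of fragments, and members had the higher median level. No share for genes of like level stands beside the members, and the part of level in the difference was not tested. The split depended on scaling: median ratios gave 16 below and 8 above, beside 34.4% and 30.4% of all genes, and quantile normalization 17 and 8, beside 37.9% and 24.6%.

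**Figure D3:**
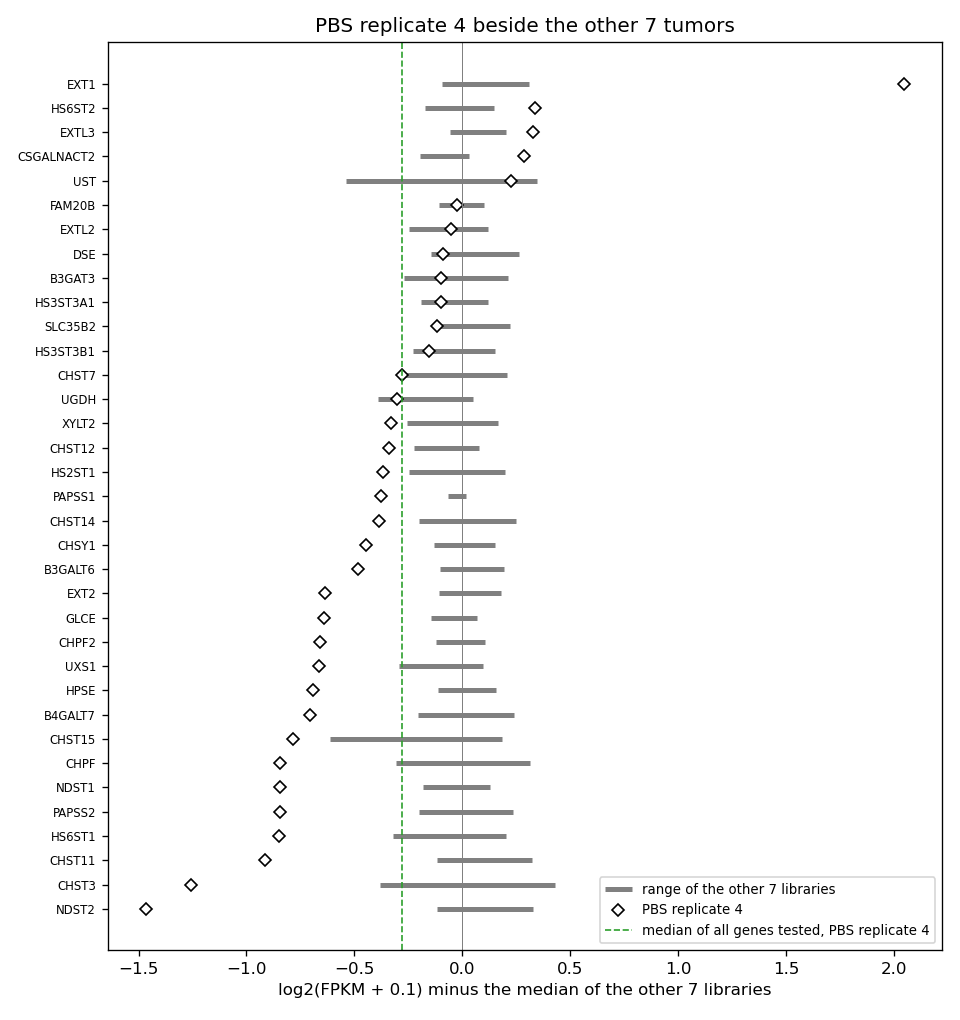
Position of PBS replicate 4 (open diamonds) for each tested member, as log2(FPKM + 0.1) minus the median of the other 7 libraries (x axis), with their range as grey bars and the median of all tested genes as a dashed line at -0.28. EXT1 lies far above its bar at 2.05, 4 members lie above and 22 below their bars.

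Markers of cell types were read in the same tumors. In bulk samples, fewer cells of a type and less RNA per cell cannot be told apart, and how mouse reads of the host were handled is not given in the sources used here. Tumor cell markers summed to 1808 to 2413 FPKM in PBS replicates 1 to 3, 1980.1 FPKM in replicate 4 and, with gluconate, 1670.4 to 2180.1 FPKM. That sum was mostly KRT8 and KRT18, and single markers moved otherwise. KRT7 was 124 FPKM in PBS replicate 4, 185 to 335 FPKM in the other PBS tumors and 293 to 393 FPKM with gluconate, with a log2 fold change of 0.73 (limma, unadjusted p = 0.0201) and, without PBS replicate 4, 0.48 (unadjusted p = 0.0271). The other 6 tested markers of the list had an unadjusted p above 0.05, with log2 fold changes of -0.20 for KRT8, -0.33 for KRT18, -0.67 for WT1, 0.13 for PAX8, 0.06 for EPCAM and 0.24 for MSLN. KRT8 and KRT18 were at -0.21 and -0.31 without PBS replicate 4. In PBS replicate 4, WT1 was 6.58 FPKM against 1.07 to 1.82 FPKM in the other 7 libraries, while KRT7, PAX8 and EPCAM were below their ranges. PAX8 and KRT8 were present in every tumor, while MUC16 reached at most 0.00168 FPKM and CDH1 at most 0.159 FPKM. Of the 10 fibroblast markers, 5 averaged under 1 FPKM: COL1A2, DCN, PDGFRA, THY1 and POSTN were at most 0.125 FPKM in any tumor. The other 5 were tested, and all 5 were below the other 7 libraries in PBS replicate 4. The 10 markers, of which COL1A1 made up most, summed to 129.7 to 185 FPKM, 45.3 FPKM and 165 to 192 FPKM in the same order. The 6 granulosa and theca markers summed to 5.56 to 6.84, 22.9 and 3.65 to 5.50 FPKM. FOXL2 alone made the high sum, with 21.5 FPKM in PBS replicate 4 against 1.56 to 3.60 FPKM in the other 7 libraries, while AMH was 1.40 FPKM there against 1.73 to 4.03 FPKM, and the other 4 were at 0 there. The log2 fold change of AMH was -0.18 (limma, unadjusted p = 0.554), and -0.47 without PBS replicate 4 (unadjusted p = 0.0369). The 6 endothelial markers summed to 0.257 FPKM in PBS replicate 4, below the 0.454 to 0.707 FPKM of the other 7 libraries. All 6 averaged under 1 FPKM and 0 were tested. In PBS replicate 4 PECAM1 was 0.0688 FPKM against 0.296 to 0.563 FPKM in the other 7 libraries, and VWF and KDR were below their ranges. TEK went the other way, at 0.159 FPKM against 0.0104 to 0.0490 FPKM. The 6 myeloid markers summed to 20.8 to 28.9 FPKM, which was mostly CD68. PTPRC, CD14, CSF1R and LYZ were at most 0.125 FPKM in any tumor. ITGAM was 1.36 FPKM in PBS replicate 4 against 0.691 to 0.810 FPKM in the other 7 libraries, while CD68 was within its range there. Of the 4 mast cell markers only KIT was in the table, at up to 0.0491 FPKM. The fibroblast and endothelial sums and several single markers, among them KRT7, TEK, ITGAM, FOXL2 and WT1, thus moved with PBS replicate 4. EXT1 was high in that library and CHST3, UXS1 and NDST2 were low, and the part of these markers in those values was not tested.

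The genes around the pathway were counted in the same fit. Of 16 further synthesis genes, 14 were in the table and 9 were tested, and 0 had an unadjusted p under 0.05 with or without PBS replicate 4. Of 29 core proteins of heparan and chondroitin sulfate proteoglycans, 20 were tested and 2 (10%) were higher, COL18A1 with a log2 fold change of 0.37 ± 0.14 (SE, unadjusted p = 0.0303) and SPOCK1 with 0.68 ± 0.25 (unadjusted p = 0.0242). Without PBS replicate 4, COL18A1 was at 0.24 ± 0.09 and SPOCK1 at 0.65 ± 0.27, and 3 of the 20 (15%) were higher, SDC3 being the third at 0.25 (unadjusted p = 0.0472). TGFBR3 was lower, 1 of the 20 (5%), where 2.85% of all genes were higher and 3.36% lower. The counts with all 8 tumors stand beside the 3.13% of all genes that were higher, and 0 of these genes had an adjusted p under 0.05 in limma. The median log2 fold change was 0.15 for the further synthesis genes and 0.21 for core proteins, beside 0.07 for all tested genes. The medians were -0.0017 and 0.13 without PBS replicate 4, beside -0.0029 for all genes.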

How the data were processed

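RNA of 4 PBS and 4 gluconate OVCAR8-NSG tumors was measured by polyA RNA-seq with paired reads of 150 bases. The authors deposited FPKM values, scaled by gene length and library size, for 24196 genes. The build named in the submitters' processing notes is GRCh38, and the aligner, the counting and the annotation are not given in the sources used here. The columns carry the letters C and T, which were read as PBS and gluconate from the axis of a study plot. FPKM steps gave whole fragments (tolerance 1e-06) for 24190 genes in every library, or 99.97% of values above 0, and so the depth, 3953206 to 46551535 fragments.

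Groups were compared with limma 3.58.1 in R 4.3.3 (lmFit, eBayes with a trend, two-sided) on log2(FPKM + 0.1), which understates changes of low genes, for the 12486 genes with a mean of at least 0.5 FPKM. Calls were made where the unadjusted p was under 0.05 and the change at least 2-fold, with Benjamini-Hochberg values over all genes beside them. Intervals are 95% Poisson. Alternatives were other pseudocounts, filters, scalings and fits, a replicate block, and each library left out. Same-numbered samples had correlations of deviations between -0.178 and 0.166, so numbers were not taken as pairs. The members and lists were chosen with earlier results of these data known. Values in every library are given for members with an unadjusted p under 0.05 with or without PBS replicate 4, without overlap of groups, leading a step, or in a paralog pair, and other genes are named by their list. Lysosomal enzymes are not reported here. Transcripts were from GENCODE 29 and promoters from RefSeq. Computations used Python 3.11.15, numpy 2.4.6, scipy 1.17.1 and pandas 2.3.3, and figures matplotlib 3.10.9.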

Additional observations from a re-analysis of the deposited data

Results flagged for a closer look

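Within each group of 4 tumors, the FPKM of the 35 tested members was searched for a single tumor far from the other 3, by the gap to its neighbour over the range of the group (Dixon's test). Of 70 groups, 7 passed, where chance gives about 1 in 20, or 3.5, and 5 of the 7 were PBS replicate 4. Over all tested genes 8.10% of the groups passed, beside 10.0% for members, and PBS replicate 4 passed for 8.81% of genes, beside 14.3% of members (5 of 35). EXT1 was 136 FPKM in that tumor against 32.8 to 40.7 FPKM in the other PBS tumors, the 1 case on the high side. The linker galactosyltransferases B4GALT7 and B3GALT6 were 4.56 FPKM against 7.49 to 7.70 FPKM and 6.67 FPKM against 9.21 to 9.61 FPKM there. The epimerase GLCE was 2.33 FPKM against 3.55 to 3.78 FPKM and the sulfate donor synthase PAPSS1 was 36.7 FPKM against 46.2 to 47.8 FPKM. In gluconate replicate 1, the chondroitin polymerase gene CHPF2 was 19.5 FPKM against 21.5 to 21.9 FPKM, and the sulfotransferase gene CHST7 was 2.30 FPKM against 2.84 to 2.93 FPKM. Their causes were not tested.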

How the results depend on the processing

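The count of members called (2-fold, unadjusted p under 0.05) was 0 in each direction under every alternative, and rose to 2 higher (UXS1 and CHST3) with no line on the fold. Over all genes, 13 lower and 24 higher became 3 and 5 with a pseudocount of 1, 7 and 9 with voom on recovered fragments, and 30 and 5 with voom and sample quality weights. A fit without a trend gave 8 lower, no filter gave 61 higher, and quantile normalization gave 10 higher. At an adjusted p under 0.05 there were 0 genes in each direction, and with no line on the fold 186 lower and 391 higher. Leaving out 1 library at a time gave 6 to 46 lower and 3 to 63 higher, with 8 and 3 without PBS replicate 4. The lowest adjusted p of any gene lay between 0.252, without a filter, and 0.901. Members without overlap were 2 lower with median-ratio scaling, beside 2.27% of all genes, and 2 higher with quantile normalization, beside 2.16%. Members above the other 7 libraries in PBS replicate 4 were 8 with either scaling. UXS1 and CHST3 had an unadjusted p under 0.05 in each alternative except without gluconate replicate 4 (0.0544 and 0.0663) and, for CHST3, without gluconate replicate 3 (0.0501). Of the log2 fold changes of members under alternatives, 615 kept their side of 0.05 and moved by less than the spread between replicates, 12 passed 0.05 only there and 3 no longer passed. Those that passed only in an alternative were EXTL3 in 5 settings, HS3ST3A1 with quantile normalization, EXT1 and HS2ST1 without PBS replicate 4, UGDH without PBS replicate 1, and NDST1, HS6ST1 and CHST14 without PBS replicate 2. The causes were not tested.

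With the replicate number as a block, the replicate block fit gave 15 genes lower and 32 higher, 0 members called, and 470 genes at an unadjusted p under 0.05, among them UXS1 and CHST3. Correlations of deviations of same-numbered tumors were -0.178, 0.0836, 0.166 and -0.0575, so the numbers showed no pairing.

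Depth limits what can be said of PBS replicate 4, where members such as NDST2 and CHST7 rest on 18 and 22 fragments, and of the 8 members under the minimum. Without that library the log2 fold change of 9 members changed sign, NDST2 by the most (0.26 to -0.13). Values of HS3ST3A1 and HS3ST3B1 may share reads, and overlapping genes may share reads with EXTL3, CHPF, CHPF2, DSE, UST, HS3ST3B1, XYLT1 and NDST3.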
